A study of Mus musculus with 16 samples.

Results

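The Src family kinases are 8 listed genes here, namely the kinases Lyn, Blk, Fyn, Fgr, Lck, Src and Yes1 and their regulator Csk, out of 50686 genes in the count files. They were chosen by name, and each was found in all 16 libraries by its gene identifier. RNA was sequenced from 4 wild-type and 4 Cdk8-ko cell lines, made from C57BL/6N mouse bone marrow by transformation with the BCR-ABL1p185 oncogene and given 1 µM Senexin B, an inhibitor of the kinases CDK8 and CDK19, or 0.01% DMSO for 48 h. This gave 4 groups of 4 libraries, in which the replicate number names the line, so each line was measured with and without Senexin B. All 8 lines carry BCR-ABL1p185, the Cdk8-ko lines are described in the study as Cdk8 deleted by Vav-Cre, which acts throughout blood cells, and the wild-type lines as Cdk8 fl/fl, the intact floxed allele. The study describes the lines of each genotype as individually derived, so p-values between genotypes measure the spread between lines, and each genotype rests on 4 lines. P-values for Senexin B measure the spread of within-line changes where each line is compared with itself. Fits of Senexin B without that pairing treat both libraries of a line as independent. In bulk RNA, fewer cells with a transcript and less transcript per cell cannot be told apart.

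Src family kinases are membrane-anchored tyrosine kinases that act first after many surface receptors are engaged. In B-lineage cells Lyn, Blk and Fyn phosphorylate the signalling tails of the B-cell and pre-B-cell receptors, after which Syk and Btk are recruited, and Lyn also phosphorylates inhibitory receptors. Csk phosphorylates the C-terminal tail of each family member and thereby holds it inactive, while the phosphatase CD45 (Ptprc) removes that phosphate. Lyn is also a known partner of BCR-ABL1 in transformed cells.

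The count of reads assigned to genes ran from 13145876 to 18349425 over the 16 libraries. Markers of pro-B cells were high in every library. In counts per 1000000 counted reads (CPM), the B-lineage factors Pax5 and Ebf1 were 785 to 1614 and 694 to 1284, and Igll1, a chain of the pre-B-cell receptor, was 623 to 1884. Cdk8 itself was 61.7 to 68.6 CPM in wild-type DMSO lines and 35.3 to 52.0 CPM in Cdk8-ko DMSO lines, and the deposited gene counts cover the whole gene, so they do not show which exons were lost. The wild-type line of replicate 1 stood apart from the other wild-type lines in its response to Senexin B. A gene was called past the study's limits, an adjusted p under 0.05 and a fold over 2. With each line as a block, so that both libraries of a line are compared with each other, 45 genes passed the limits in wild-type lines and 538 passed without that line, against 0, 9 and 28 without the lines of replicate 2, 3 and 4. The fold changes of Lyn, Fyn, Blk, Lck and Csk in wild-type lines are therefore also given without the wild-type line of replicate 1. In Cdk8-ko lines 7 genes passed with the block. Without the Cdk8-ko line of replicate 1 it was 31 genes, against 0, 2 and 0 without those of replicate 2, 3 and 4.

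Positions are on the GRCm38 build. Lyn (ENSMUSG00000042228.14) is on chromosome 4 from 3678115 to 3813122, Blk (ENSMUSG00000014453.3) on chromosome 14 from 63372837 to 63417187, and Fyn (ENSMUSG00000019843.14) on chromosome 10 from 39368855 to 39565381. Lck (ENSMUSG00000000409.14) is on chromosome 4 from 129548344 to 129573641, and Csk (ENSMUSG00000032312.7) is on chromosome 9 from 57626646 to 57653631. Fgr (ENSMUSG00000028874.14) is on chromosome 4 from 132974095 to 133001910, Src (ENSMUSG00000027646.15) on chromosome 2 from 157418444 to 157471862 and Yes1 (ENSMUSG00000014932.15) on chromosome 5 from 32611171 to 32687057. Counts were taken without regard to strand. An exon of Lyn is overlapped for 248 bases by Gm26857 on the other strand, a gene with 1 to 23 counts per library.

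The promoters of Fyn and Lck are shown because Fyn had the lowest unadjusted p of the members between genotypes in DMSO and because Lck has a pair of annotated starts whose transcripts the gene count adds together. RefSeq sequences on GRCm38.p6 matched 6 of the 8 members, and Lyn and Blk are not among them. Each run is the 250 bases before a start, read 5′ to 3′ on the strand of the gene. Capitals mark the exact letters GAGGAAG, a longer form of the ETS-factor site, on either strand. Other forms of that site, such as the caggaag in both Lck runs, were neither marked nor counted. The Fyn run is chr10:39369549-39369798 on the plus strand. It lies inside the counted gene model, which begins at 39368855, and the bases before that earlier position were not searched. The Lck runs, on the minus strand, are chr4:129573642-129573891 before the distal start and chr4:129558373-129558622 before the proximal start.
Fyn: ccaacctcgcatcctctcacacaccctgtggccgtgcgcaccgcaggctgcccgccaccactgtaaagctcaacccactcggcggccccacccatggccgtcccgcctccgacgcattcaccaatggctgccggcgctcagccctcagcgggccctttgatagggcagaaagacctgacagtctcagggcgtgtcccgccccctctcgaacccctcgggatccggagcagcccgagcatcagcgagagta
Lck distal: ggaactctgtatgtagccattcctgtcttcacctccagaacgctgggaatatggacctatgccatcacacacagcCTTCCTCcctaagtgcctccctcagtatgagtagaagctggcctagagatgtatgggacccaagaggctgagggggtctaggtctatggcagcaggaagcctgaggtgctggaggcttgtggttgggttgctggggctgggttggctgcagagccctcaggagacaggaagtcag
Lck proximal: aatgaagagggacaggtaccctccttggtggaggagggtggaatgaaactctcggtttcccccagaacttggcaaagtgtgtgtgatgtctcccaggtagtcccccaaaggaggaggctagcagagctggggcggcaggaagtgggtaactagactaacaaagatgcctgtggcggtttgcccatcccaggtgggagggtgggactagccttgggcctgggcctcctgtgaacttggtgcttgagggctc
GAGGAAG occurred once in the distal Lck run and in neither other run. Of 32851 mouse promoters of this length, 10.6% hold it. TTCNNNGAA, the letters bound by STAT factors, was found in none of these 3 runs and is held by 7.02% of all promoters. CANNTG, the E-box, occurred once in the proximal Lck run and in neither other run, and 66.2% of all promoters hold it. Both strands were searched for each motif. These matches describe letters only, and absence of a match says nothing of a factor.

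The kinases fell into abundant and scarce members. Levels were compared between genes only per length of the gene model, as CPM per kilobase (RPKM), averaged over 16 libraries. Csk was highest, at 76.0 RPKM ± 15.8 (SD over 8 lines). Blk followed at 64.3 RPKM ± 42.7, Fyn at 34.4 ± 4.81, Lyn at 28.3 ± 5.68 and Lck at 22.0 ± 9.79. Fgr, Src and Yes1 were far lower, at 0.503, 0.292 and 0.0444 RPKM. The order was the same in TPM, which scales RPKM to a fixed sum in each library. Its upper places did not hold in every line, since Csk exceeded Blk in 6 of 8 lines, Blk exceeded Fyn in 6, Fyn exceeded Lyn in 7 and Lyn exceeded Lck in 4 lines. Lck, by contrast, exceeded Fgr in 8 of 8 lines.

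**Figure D1:**
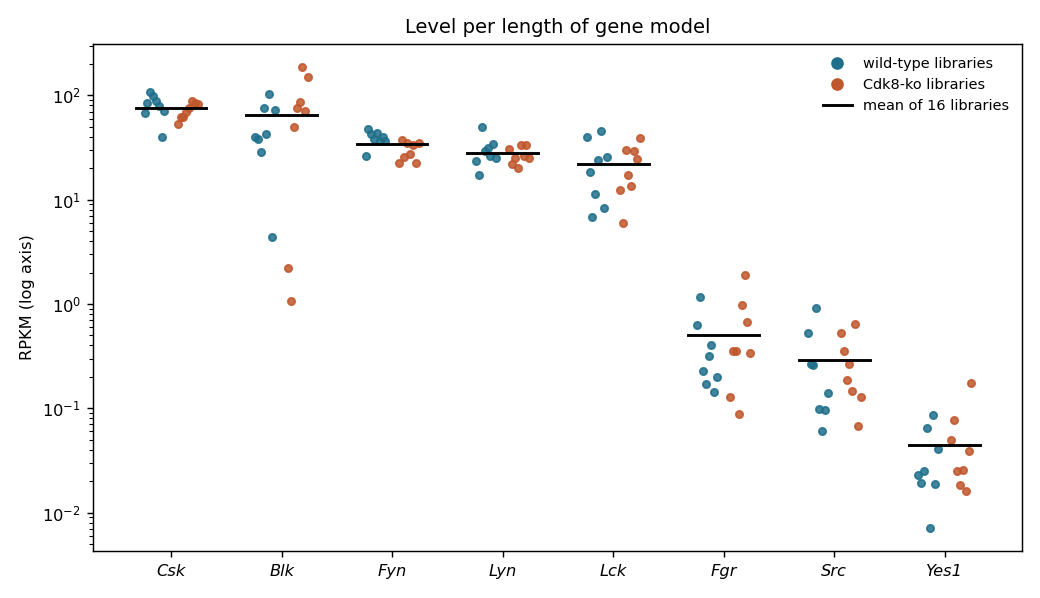
RPKM (log axis) of each member in 16 libraries, with blue points for wild-type and orange points for Cdk8-ko libraries and black bars for the mean. Csk, Blk, Fyn, Lyn and Lck lie above 1 RPKM in every library, and Blk reaches down to 1.07 RPKM in 1 Cdk8-ko line.

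Lyn, the main Src kinase of B-lineage cells and one that both starts and restrains receptor signalling, was lower with Senexin B in 8 of 8 lines. In wild-type lines of replicate 1 to 4, Lyn was 95.8, 201, 127 and 140 CPM with DMSO and 69.8, 119, 106 and 102 CPM with Senexin B. In Cdk8-ko lines it was 124, 102, 137 and 137 CPM with DMSO and 89.7, 82.7, 107 and 103 CPM with Senexin B. The groups overlapped, and the fall showed within each line, where the Senexin B level was between 0.592 and 0.837 times the DMSO level. The mean was 141 ± 44.2 CPM (SD, n = 4) with DMSO and 99.2 ± 20.9 CPM with Senexin B in wild-type lines, and in Cdk8-ko lines 125 ± 16.3 and 95.5 ± 11.2 CPM.

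Over all 8 lines with each line as a block, the log2 fold change of Lyn was -0.43 (SE 0.07), with an adjusted p of 0.00988 by the quasi-likelihood test of edgeR. It lay between -0.45 and -0.39 when any 1 line was left out, with adjusted p of 0.0195 to 0.0315. It passed the limit on adjusted p and missed the fold limit of 2. In that fit 2.63% of 14164 genes passed the adjusted p limit, 1.49% downward, and 2.59% were lower in every line. Without the block, which leaves the differences between lines in the error, the log2 fold change was -0.45 with an adjusted p of 0.786, and 0% of genes passed both limits in edgeR, where 688 genes had an unadjusted p under 0.05 and DESeq2 called 17. A two-sided exact permutation test of the within-line changes gave p = 0.0078, the smallest that 8 lines allow. By genotype with the block the log2 fold change was -0.47 (SE 0.15, adjusted p = 0.302 in edgeR) in wild-type lines and -0.39 (SE 0.08, adjusted p = 0.203) in Cdk8-ko lines. Without the wild-type line of replicate 1 the former was -0.49 (SE 0.16, adjusted p = 0.108). In Cdk8-ko lines DESeq2 gave an adjusted p of 0.0251 with the block and of 1 without it. The difference between the genotypes' responses was 0.09 on the log2 scale (SE 0.15, adjusted p = 0.991).

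Lyn is also expressed by myeloid cells, so the markers of those cells were measured beside it. The summed level of 10 myeloid genes was 0.817 to 25.8 CPM and was lower with Senexin B in 8 of 8 lines, at 0.343 to 0.780 times its DMSO level. The median sum was 2.42 CPM, and the highest was in the Cdk8-ko DMSO library of replicate 1, so most sums rest on few counts. Over all libraries together Lyz2 (0.163 to 24.6 CPM) had the most counts, 1016, followed by Fcgr1 with 129. Elane, S100a8 and S100a9 had 0 counts in 16 of 16 libraries, while Itgam and Csf1r had 44 and 26 counts over all libraries. The part of the myeloid sum in the change of Lyn was not tested.

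**Figure D2:**
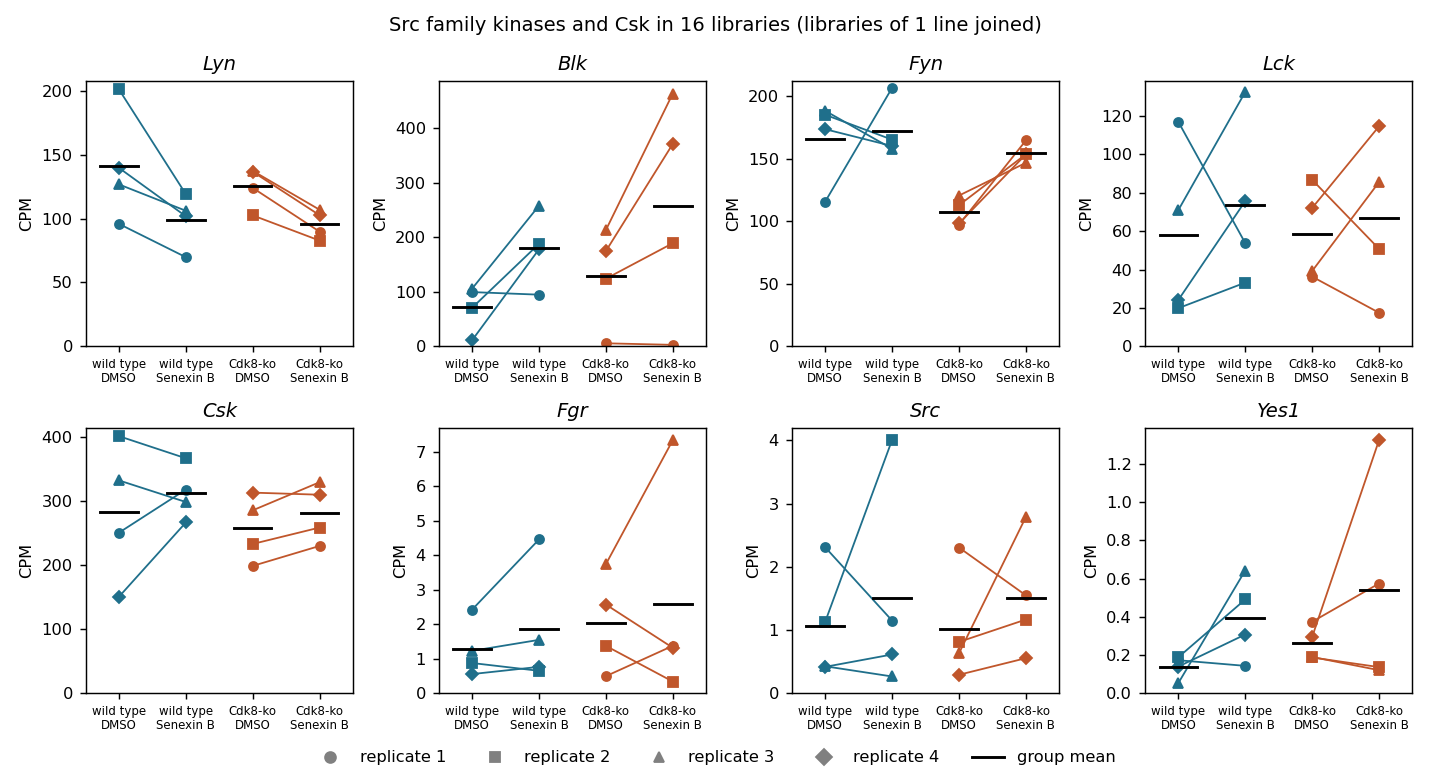
CPM of each member in 16 libraries on linear axes from 0, with both libraries of each line joined, blue for wild-type and orange for Cdk8-ko lines, a marker shape for each replicate number and a black bar for the group mean. Lines for Lyn slope down in 8 of 8 lines, while those of Fyn slope up in 4 Cdk8-ko lines and in 1 wild-type line.

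Fyn, a kinase of lymphocytes and neurons that phosphorylates antigen-receptor chains, was higher with Senexin B in 4 of 4 Cdk8-ko lines. Its DMSO levels in these lines were 97.3, 113, 121 and 98.3 CPM, and its Senexin B levels 165, 154, 147 and 153 CPM. The groups did not overlap, but the share of all genes with such groups was not measured. With the line as a block the log2 fold change was 0.53 (SE 0.10, adjusted p = 0.164 in edgeR), so it did not pass there. DESeq2 with the same block gave 0.54 and an adjusted p of 0.00709, against 0.619 without the block, and edgeR without the block gave an adjusted p that rounded to 1. Leaving out 1 line gave 0.46 to 0.62 with the block. Genes higher in every Cdk8-ko line made up 8.89% of 13285 tested. This difference was known when the genes were chosen, so it is no independent evidence.

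In wild-type lines Fyn was 116, 185, 188 and 174 CPM with DMSO and 207, 165, 158 and 160 CPM with Senexin B. Replicate 1 went to 1.79 times and the other 3 lines went to between 0.839 and 0.923 times their DMSO level. The log2 fold change was 0.08 (SE 0.20, adjusted p = 0.93) with the block and -0.18 (SE 0.15, adjusted p = 0.552) without replicate 1. The test of the difference between genotypes gave 0.46 on the log2 scale (SE 0.24, adjusted p = 0.991 in edgeR) with the block. Without the wild-type line of replicate 1 it was 0.71 (SE 0.17, adjusted p = 0.168). Without any 1 other line it was between 0.35 and 0.54, with a lowest adjusted p of 0.967 in edgeR. A two-sided exact permutation test of the within-line changes gave p = 0.143. The difference between genotypes includes the rise in Cdk8-ko lines known at the choice of genes, so it is no independent evidence either.

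Between the genotypes in DMSO, Fyn was lower in Cdk8-ko lines, at 107 ± 11.4 CPM (SD, n = 4) against 166 ± 33.9 CPM. The lowest wild-type line, replicate 1 at 116 CPM, fell among the Cdk8-ko lines, and the other 3 wild-type lines lay above them. The log2 fold change was -0.63 (SE 0.17, adjusted p = 0.898 in edgeR), and the two-sided exact permutation test gave p = 0.0571, where 0.0286 is the smallest 4 lines against 4 allow. Over the alternatives the adjusted p of Fyn was 0.222 to 1. In this comparison 0.00759% of 13174 genes passed the limits and 5.31% had an unadjusted p under 0.05, Fyn among them. The Cdk8-ko DMSO values here are also the starting values of the rise known at the choice of genes. The difference in DMSO is therefore not independent of that choice. With Senexin B the difference was -0.16 (SE 0.14), at 155 ± 7.42 CPM in Cdk8-ko and 173 ± 23.0 CPM in wild-type lines. Of 13010 genes 0% passed in edgeR, 202 had an unadjusted p under 0.05 and DESeq2 called 10.

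**Figure D3:**
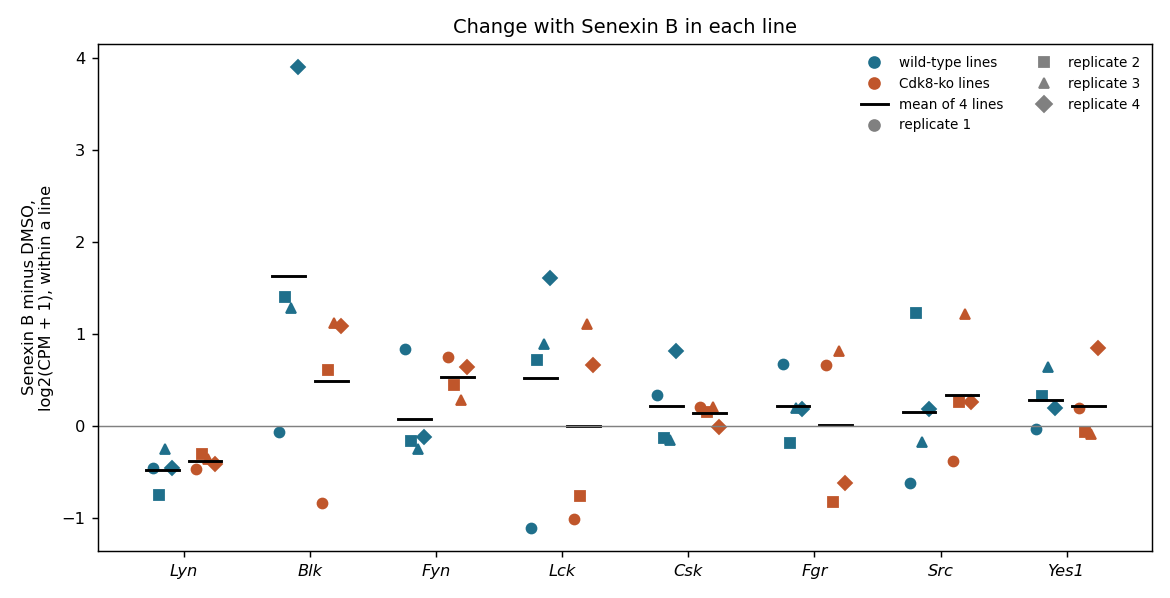
Change with Senexin B in each line, as the difference in log2(CPM + 1), for wild-type (blue) and Cdk8-ko (orange) lines, with marker shapes for replicates and black bars for the mean of 4 lines. Lyn lies below 0 in 8 lines, and Blk and Lck spread over more than 2 units.

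Blk, a kinase found mainly in the B lineage, differed more between lines than any other abundant member. Its DMSO levels were 99.3, 70.5, 106 and 10.98 CPM in wild-type lines and 5.48, 124, 213 and 174 CPM in Cdk8-ko lines. With Senexin B they were 94.6, 188, 257 and 178 CPM in wild-type and 2.64, 189, 463 and 371 CPM in Cdk8-ko lines. The wild-type line of replicate 4 went from 157 to 2311 counts, 16.2 times its DMSO level in CPM, while the Cdk8-ko line of replicate 1 had 88 and 46 counts. Over the 8 DMSO libraries the coefficient of variation of Blk was 72.1%, above that of 95.6% of 8744 genes with a mean of at least 10 CPM.

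Blk was higher with Senexin B in 6 of 8 lines, and the wild-type and Cdk8-ko lines of replicate 1 were the exceptions. Over 8 lines with the block the log2 fold change was 1.05 (SE 0.40, adjusted p = 0.218 in edgeR), and 0.946% of genes passed both limits. In wild-type lines it was 1.58 (SE 0.60, adjusted p = 0.429), where 0.346% of 12989 genes passed. Without replicate 1 it was 2.14 (SE 0.51, adjusted p = 0.0459), which passed both limits, as did 538 of 12976 genes in that fit. Without the line of replicate 2, 3 or 4 it was 1.65, 1.71 and 0.88, and did not pass. In Cdk8-ko lines it was 0.62 (SE 0.30, adjusted p = 0.524), where 0.0527% of genes passed, and 0.94 (adjusted p = 0.0457) without the line of replicate 1. In that last fit 44 of 13233 genes passed the adjusted p limit, and Blk missed the fold limit. Without the Cdk8-ko line of replicate 2, 3 or 4 the change was 0.61, 0.44 and 0.43, past neither limit. Genotype differences of Blk were 0.86 (SE 0.95) in DMSO and 0.51 (SE 1.01) with Senexin B on the log2 scale, each smaller than its SE.

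Lck, the Src kinase of T cells, was expressed in libraries with CD3 genes at or near 0. It ranged from 17.5 to 133 CPM, while Cd3g had 0 counts in 16 of 16 libraries and Cd3d, Cd3e, Cd4 and Cd8a reached at most 0.245, 0.0817, 0.0696 and 0.0735 CPM. Of the 9 T-cell markers, Lat, an adaptor, was the most abundant (0.441 to 65.0 CPM), and the sum of all 9 was 1.03 to 67.6 CPM. That sum was higher with Senexin B in 6 of 8 lines, and its part in the level of Lck was not tested. NK cells also express Lck, and the summed NK markers were 0.976 to 81.8 CPM, the erythroid ones 3.75 to 264, the megakaryocyte ones 0.267 to 2.45 and the stromal ones 0 to 2.30 CPM.

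In DMSO Lck was 117, 19.9, 71.0 and 24.1 CPM in wild-type and 36.3, 86.8, 39.2 and 72.1 CPM in Cdk8-ko lines. With Senexin B it was 53.9, 33.2, 133 and 75.6 CPM and 17.5, 50.8, 85.6 and 115 CPM. It was higher with Senexin B in 5 of 8 lines and lower in 3, and 2 of those 3 were the lines of replicate 1. The log2 fold change in wild-type lines was 0.57 (SE 0.42, adjusted p = 0.71 with the block). Without replicate 1 it was 1.10 (SE 0.20, adjusted p = 0.00987 in edgeR), past both limits, as were 538 of 12976 genes in that fit. Without the line of replicate 2, 3 or 4 it was 0.51, 0.44 and 0.18, and did not pass. In Cdk8-ko lines it was 0.01 (SE 0.37, adjusted p = 0.997).

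Csk, the negative regulator of all of these kinases, did not pass in any comparison. It was 251, 401, 332 and 151 CPM in wild-type DMSO libraries and 318, 367, 299 and 267 CPM with Senexin B. In Cdk8-ko lines it was 199, 233, 286 and 313 CPM with DMSO and 230, 259, 330 and 310 CPM with Senexin B. The groups overlapped throughout. Its log2 fold change with Senexin B over 8 lines was 0.18 (SE 0.11, adjusted p = 0.448 in edgeR with the block), and between genotypes in DMSO -0.14 (SE 0.29). In wild-type lines it was 0.23 (SE 0.20, adjusted p = 0.76), and 0.18 (SE 0.21, adjusted p = 0.698) without the line of replicate 1.

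Fgr, a kinase mostly of myeloid cells, and Src, the founding member, were near the lower limit of detection. Fgr had 5 to 121 counts per library (0.343 to 7.33 CPM) and Src 4 to 49 (0.267 to 4.01 CPM). Over 8 lines with the block their log2 fold changes were 0.21 (SE 0.32) and 0.47 (SE 0.37). Yes1, a widely expressed kinase, had 1 to 19 counts per library (at most 1.32 CPM) and was the member of the 8 that did not pass the filter on low counts. DESeq2, which kept Yes1, gave it a log2 fold change over 8 lines of 1.27 (SE 0.58, adjusted p = 0.859) without the block and 0.99 (SE 0.61) with it.

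None of the 7 members tested passed both limits in the 6 comparisons with all lines, with or without the block, nor with DESeq2. An unadjusted p under 0.05 was found over 8 lines with the block for Lyn, Blk and Fyn, where 16.4% of all genes had one. In wild-type lines it was found for Lyn and Blk and in Cdk8-ko lines for Lyn and Fyn, where 10.3% of all genes had one in each. The difference of Fyn in Cdk8-ko lines was known at the choice of genes and enters the comparison over 8 lines too, so these counts are a description only. In the interaction they were 0 of 7 against 3.23%, and by genotype with Senexin B 0 of 7 against 1.55%. Lyn alone of the 7 was lower in every line of a genotype, which 9.46% of genes were in wild-type and 10.3% in Cdk8-ko lines. In wild-type lines 0 of 7 were higher in every line, against 8.38% of genes, and over 8 lines 0 of 7, against 1.96%. Of the 7 members, 0 had genotype groups that did not overlap in DMSO, against 3.14% of genes, and 0 with Senexin B, against 0.999%. For 0 of 7 did the within-line changes of the genotypes not overlap, against 2.08% of genes. The members' median log2 fold change with Senexin B over 8 lines, with the block, was 0.28, with 6 higher and 1 lower, while the median of all genes was -0.00.

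The summed RNA of the 7 kinases was carried by Blk, Fyn, Lyn and Lck. In RPKM, Blk was the highest of the kinases in 10 of 16 libraries, Fyn in 4 and Lyn in 2. The sum was 87.0 to 142 RPKM in wild-type DMSO libraries and 123 to 212 with Senexin B, and 68.1 to 162 and 67.6 to 279 in Cdk8-ko libraries. With Senexin B it went to 0.933 to 1.84 times its DMSO value. The Lyn share was 17.9% to 39.4% of the sum in wild-type DMSO libraries and 12.3% to 18.8% with Senexin B. The lowest sums, in the Cdk8-ko line of replicate 1, were those in which Blk made up 3.26% and 1.58%.

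**Figure D4:**
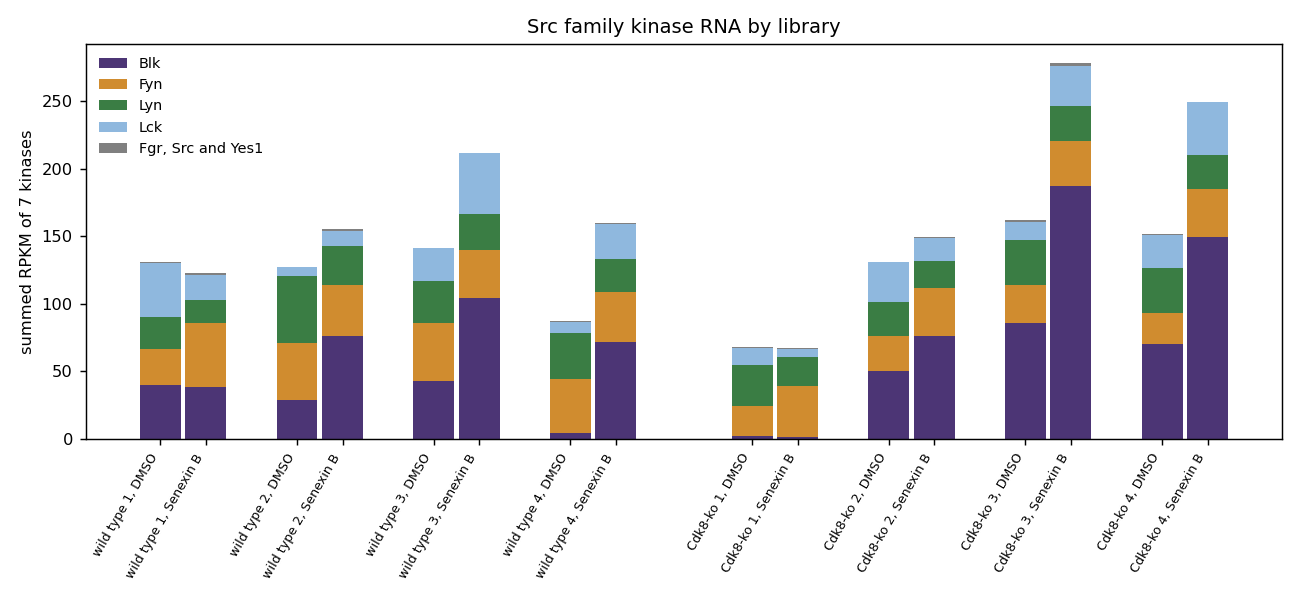
Summed RPKM of 7 kinases in each library, stacked by kinase, with the bars of each line side by side. Blk makes up the largest part in 10 of 16 libraries, and the Cdk8-ko line of replicate 1 has sums of 68.1 and 67.6 RPKM.

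The genes around the family were looked at by lists. Of 15 tested genes that control Src kinases, 0 passed the adjusted p limit in any of the 6 comparisons, with edgeR with or without the block, and over 8 lines with the block 7 were higher and 8 lower, 2 of them (Ptpre and Unc119, named after their values were seen) at an unadjusted p under 0.05, which 16.4% of all genes had. The most abundant of them were Ptprc, the activating phosphatase CD45, Cbl, a ubiquitin ligase, and Pag1, a membrane anchor of Csk, at 449, 336 and 233 CPM on average. Of 13 other cytoplasmic tyrosine kinases tested, 0 passed either, and over 8 lines with the block 5 were higher and 8 lower, 3 of them (Zap70, Abl1 and Tnk2, likewise named afterwards) at an unadjusted p under 0.05, against the same 16.4%. Abl1, Jak1 and Ptk2b led that list at 737, 395 and 148 CPM on average. Ptk2, named after its values were seen, ranged from 0 to 41.9 CPM. By genotype it was -2.42 (SE 0.83, adjusted p = 0.898 in edgeR without the block) in DMSO and -2.75 (SE 1.10) with Senexin B. In DMSO it was 1 of 13 with an unadjusted p under 0.05, where 5.31% of all genes had one. The study lists it among genes lower in Cdk8-deleted lines, at an adjusted p under 0.1. Whether reads of the BCR-ABL1 transgene were counted under Abl1 was not tested.

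Among 28 substrates and partners in B-lineage cells, Bank1 passed both limits over 8 lines with the block, and 0 of 28 passed without it. With the block, 13 were higher and 15 lower over 8 lines. Bank1 encodes an adaptor of B-cell receptor signalling that binds Lyn. It was 16.5, 11.6, 31.2 and 73.1 CPM in wild-type DMSO libraries and 6.33, 2.78, 9.84 and 16.6 CPM with Senexin B. In Cdk8-ko lines it was 72.7, 4.13, 34.6 and 28.2 CPM with DMSO and 22.7, 1.17, 19.5 and 8.84 CPM with Senexin B. The fall was seen in 8 of 8 lines. With the block, the log2 fold change was -1.79 (SE 0.19, adjusted p = 0.00889 in edgeR) in wild-type lines and -1.63 (SE 0.14, adjusted p = 0.000254) over 8 lines. In Cdk8-ko lines it was -1.45 (SE 0.19, adjusted p = 0.0794), and the difference between genotypes was 0.35 (SE 0.27, adjusted p = 0.991). Without the block the adjusted p over 8 lines was 0.855. Over 8 lines, Sh2b3, an adaptor that restrains cytokine signalling, fell by 0.47 (SE 0.09, adjusted p = 0.0197) and Cd79b, a receptor chain, fell by 0.38 (SE 0.08, adjusted p = 0.0308); both passed the adjusted p limit alone and were named after their values were seen. With Bank1 they made 3 of 28 genes past that limit, where 2.63% of all genes passed it, and Bank1 was 1 of 28 past both limits, where 0.946% did.

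The genes whose levels ran most like each member were found over 16 libraries and 12558 genes with a mean of at least 1 CPM, by Pearson's r of log2(CPM + 1). For Lyn they were Natd1 (r = 0.88), Grb2 (0.87) and Gbp3 (0.87), and for Fyn Lemd2 (0.88), Tsc22d3 (0.86) and Atg12 (0.83). For Blk they were Ninl (0.95), Adam19 (0.93) and Tmem121 (0.93), for Lck Traip (0.91), 1700027J07Rik (0.88) and Ints1 (0.87), and for Csk Slc14a1 (0.90), Pigt (0.89) and Tnk2 (0.88). For the scarce Fgr they were Tspan15 (0.88), Dok2 (0.85) and Rasa2 (0.85), and for Src Gm7331 (0.90), Dctn5 (0.84) and Zfp948 (0.83). The 16 points share 8 lines, so they are not independent. Between members r over 16 libraries was highest for Blk and Lck (0.69) and for Blk and Csk (0.65). Over the 8 DMSO libraries alone it was highest for Blk and Fgr (0.83), then Blk and Csk (0.69). There it was 0.50 for Blk and Lck and -0.83 for Lyn and Lck.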

How the data were processed

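mRNA libraries (single-end, 50 bp) were trimmed (Trimmomatic), aligned (STAR) and summed over union gene models (featureCounts 1.5.1, GENCODE M13, GRCm38) by the authors, who deposited whole-number counts, neither normalized nor split by strand. Groups and lines were taken from the labels. Tests used the robust quasi-likelihood method of edgeR 4.0.16 in R 4.3.3, after filterByExpr and TMM scaling, with Benjamini-Hochberg adjustment over all genes tested. The limits were 0.05 on adjusted p and 2 on the fold. The study names DESeq2 and no block, so the fits without a block are the main ones. Those with each line as a block are alternatives, although the Results mostly give them first for Senexin B. Without a block, 0 genes passed both limits for Senexin B in edgeR, in wild-type, Cdk8-ko or all lines. Libraries of the same line correlated after removing group means (mean r 0.70 in wild-type and 0.83 in Cdk8-ko lines, at least 0.56), so the numbers pair libraries within a genotype. DESeq2 1.42.0, RLE size factors, other filters and each library or line left out were alternatives. CPM and RPKM use TMM library sizes and the file's gene length. Of 50686 genes, 310 have no symbol. Members and lists were chosen with earlier results of these data known, and the blocked fits of the interaction and of gene counts that leave out a line were added after seeing the data. Always named are the 8 members, from each list the genes that pass and otherwise the 3 most abundant, and the 3 genes most like each member. No 2 libraries were copies, and the fits were tested on simulated data. Markers of 7 cell types were measured, and some genes of the lists are not reported here. Figures used matplotlib 3.10.9.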

Additional observations from a re-analysis of the deposited data

Results flagged for a closer look

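In 32 groups of 4 libraries, 2 had 1 library far from the other 3, where about 5% of groups would by chance. Fyn in the wild-type Senexin B library of replicate 1 was 207 CPM, against 158 to 165 CPM in the other 3 libraries. Fgr in the Cdk8-ko Senexin B library of replicate 3 was 7.33 CPM, against 0.343 to 1.38 CPM in the other 3.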

How the results depend on the processing

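Of 875 member values under alternatives, 796 kept their direction and side of the limits, 2 newly passed (Blk and Lck in wild-type lines with the line as a block, without the line of replicate 1), 0 were lost and 77 turned in direction, 67 of these when a library or line was left out. The cause was not tested.

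With the line as a replicate block, 45 genes passed in wild-type lines (46 on adjusted p alone), 7 in Cdk8-ko lines (7) and 134 over 8 lines (373), against 0 without it. Between genotypes same-numbered libraries had r of -0.15 to 0.43 over both treatments, highest for replicate 4 (0.26 in DMSO and 0.43 with Senexin B). Whether a shared number marks a shared batch was not tested. A block on that number gave 0 genes between genotypes in DMSO against 1. For members the pairing changed a call on adjusted p for Lyn over 8 lines (edgeR and DESeq2) and for Fyn and Lyn in Cdk8-ko lines (DESeq2 only). DESeq2 called 32 genes by genotype in DMSO, 10 with Senexin B, 19 in wild-type lines and 17 over 8 lines, and with the block 180, 77 and 183 in wild-type, Cdk8-ko and all lines. Requiring 10 counts in every library gave 0 by genotype in DMSO and 1 over 8 lines, no filter gave 1 by genotype with Senexin B and 3 in wild-type lines, an adjusted p limit of 0.1 gave 1 by genotype with Senexin B and 1 over 8 lines, all libraries in one fit gave 1 by genotype with Senexin B, and line as a random block gave 2 by genotype in DMSO. Leaving out a library or line gave 0 genes by genotype in DMSO, 0 to 1015 in wild-type lines, 0 to 44 in Cdk8-ko lines and 0 to 430 over 8 lines. These highest counts were on adjusted p alone with the block, the first without the wild-type line of replicate 1 and the others without the Cdk8-ko line of replicate 1. With both limits and the block, Cdk8-ko lines gave 31 and 2 without replicates 1 and 3 and 0 without replicate 2 or 4.

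Log2 fold changes that turned with a setting were, by genotype in DMSO, Blk -0.26, Lck -0.022 and Src 0.35 (line as a random block) and Lck -0.072 and Src 0.017 (libraries of a line summed), Blk -0.30 by genotype with Senexin B (replicate block), Fgr -0.053 in Cdk8-ko lines (DESeq2 with replicate block), and Csk 0.0054, 0.0029 and 0.0099 in the interaction (DESeq2, RLE size factors, no filter).

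Leaving out libraries or lines moved values that turned direction as follows. By genotype in DMSO the ranges were Lyn -0.32 to 0.042, Lck -0.28 to 0.61, Src -0.86 to 0.62 and Csk -0.36 to 0.065. By genotype with Senexin B they were Lyn -0.19 to 0.047, Fgr -0.86 to 1.37, Lck -0.52 to 0.32 and Src -0.44 to 1.18. In wild-type lines they were Fyn -0.18 to 0.19, Fgr -0.34 to 1.05, Lck -0.092 to 1.10, Src -0.67 to 1.16 and Csk -0.061 to 0.36. In Cdk8-ko lines they were Fgr -1.001 to 0.82 and Lck -0.37 to 0.51, and over 8 lines Fgr -0.15 to 0.68. In the interaction they were Lyn -0.11 to 0.26, Blk -1.52 to 0.074, Fgr -1.54 to 0.69, Lck -1.09 to 0.29, Src -0.60 to 1.25 and Csk -0.22 to 0.20. Fgr, Src and Yes1 had at most 121, 49 and 19 counts in a library, which limits the precision of their values.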
